A study of Mus musculus with 4 samples.

Results

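Messenger RNA levels of 10 target genes of the hypoxia-inducible factor HIF that lie outside glycolysis were examined in mouse embryoid bodies, suspended cell clusters that form when embryonic stem cells are left to differentiate. The genes are Bnip3, Bnip3l, P4ha1, P4ha2, Vegfa, Ankrd37, Car9, Ndrg1, Ddit4 and Higd1a. They were taken by symbol from the 24015 genes counted, and all 10 passed the filter on low counts that left 14259 genes for testing. They were chosen, with earlier results of these data known, as HIF targets that do not encode enzymes or transporters of glycolysis.

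The study compared 2 Trim33-deficient with 2 Control libraries of bulk RNA, to find genes whose expression depends on Trim33, which encodes a chromatin-associated ubiquitin ligase that works with SMAD proteins. Per the labels, the stem cell lines came from outbred mouse embryos homozygous for a floxed Trim33 allele and carrying UbcCreERT2, were used at passages 8 to 10 and were grown in LIF and 2i without feeder cells. Trim33-deficient bodies received 4-hydroxytamoxifen on day 4 of differentiation and were harvested on day 7. Control bodies were harvested on the same day, and their genotype is labelled wild type. From the labels it cannot be told if the floxed allele, the Cre transgene or 4-hydroxytamoxifen were also present in Control bodies. UbcCreERT2 is driven by the ubiquitin C promoter, which is active in most cell types, so deletion is not aimed at a single lineage of the body. How many cell lines were used is not stated in the labels, and the labels describe 2 independent pairs.

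HIF is a pair of an oxygen-sensitive alpha subunit (Hif1a, Epas1 or Hif3a) and a stable partner (Arnt or Arnt2). With oxygen present, prolyl hydroxylases of the Egln family mark the alpha subunit, the Vhl ubiquitin ligase recognises the mark and the subunit is degraded. In low oxygen the dimer binds DNA at the core sequence ACGTG or GCGTG and raises the transcription of genes for glycolysis, mitophagy, vessel growth, matrix assembly and pH control. Growing embryoid bodies can be thick enough for their core to be poorly supplied with oxygen, and HIF is known to be needed for vessel formation in them.

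The promoters of the genes are shown because the HIF core can be read in them directly. RefSeq promoter sequences on the mouse build GRCm38.p6 were matched for 8 of the 10 genes, and Bnip3l and Ndrg1 had no entry. In the 250 bases before the transcription start, ACGTG stood on either strand in at least 1 promoter of 7 of the 8 genes, and GCGTG likewise in 7. Among 10645 tested genes with an entry, 24.8% held ACGTG and 49.7% held GCGTG in this window. Higd1a held no ACGTG, Car9 no GCGTG, and Vegfa held both only in its second listed promoter, which lies inside the gene. The sequences below run 5′ to 3′ on the strand of the gene up to the last base before the start, and capitals mark each ACGTG or GCGTG on either strand (CACGT or CACGC where the match is on the opposite strand, longer where matches overlap). Bnip3 lies at chr7:138909507-138909756 (minus strand), Ankrd37 at chr8:45999851-46000100 (minus), Ddit4 at chr10:59951771-59952020 (minus), P4ha2 at chr11:54100674-54100923 (plus) and Higd1a at chr9:121857797-121858046 (minus).
Bnip3: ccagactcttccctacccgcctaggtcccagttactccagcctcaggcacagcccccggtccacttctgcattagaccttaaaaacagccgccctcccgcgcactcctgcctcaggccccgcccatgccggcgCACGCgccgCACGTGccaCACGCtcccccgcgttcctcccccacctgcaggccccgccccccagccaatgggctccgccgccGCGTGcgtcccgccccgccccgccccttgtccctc
Ankrd37: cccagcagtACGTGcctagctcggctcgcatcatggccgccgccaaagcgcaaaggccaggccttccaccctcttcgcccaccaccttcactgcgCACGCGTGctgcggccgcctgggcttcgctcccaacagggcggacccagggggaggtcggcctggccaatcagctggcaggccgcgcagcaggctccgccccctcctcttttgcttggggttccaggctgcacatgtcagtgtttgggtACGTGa
Ddit4: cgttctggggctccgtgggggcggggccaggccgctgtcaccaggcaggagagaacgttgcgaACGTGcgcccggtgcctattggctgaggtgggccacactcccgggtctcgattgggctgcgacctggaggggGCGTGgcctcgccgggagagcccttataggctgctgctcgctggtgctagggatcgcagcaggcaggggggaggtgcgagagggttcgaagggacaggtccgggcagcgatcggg
P4ha2: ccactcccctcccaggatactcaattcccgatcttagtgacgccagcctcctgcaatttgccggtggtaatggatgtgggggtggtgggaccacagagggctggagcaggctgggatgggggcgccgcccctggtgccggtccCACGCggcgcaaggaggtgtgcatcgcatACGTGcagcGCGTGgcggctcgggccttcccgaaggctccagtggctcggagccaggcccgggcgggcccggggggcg
Higd1a: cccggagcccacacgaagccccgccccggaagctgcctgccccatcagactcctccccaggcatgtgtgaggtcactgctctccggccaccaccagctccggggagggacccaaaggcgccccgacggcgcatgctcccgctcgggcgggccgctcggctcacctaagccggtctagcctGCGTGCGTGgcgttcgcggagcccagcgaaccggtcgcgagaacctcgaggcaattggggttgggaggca
Bnip3, Ankrd37 and Ddit4 are shown as the genes with 3 of the 4 most negative fold changes below, P4ha2 and Higd1a as those closest to 0. The 2 ACGTG matches of Bnip3 are the 2 strands of a single CACGTG, so they count a single palindrome. P4ha2, near the bottom of the order of change, holds an ACGTG as Bnip3, Ankrd37 and Ddit4 do. A match describes the letters in the window and was not tied to binding by any measurement here.

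The libraries held 13808837 and 12109547 counts in genes in Trim33-deficient bodies, against 12390541 and 10422738 in Control bodies. Control replicate 1 was the least like the rest, since its Pearson correlation with the others was 0.932 to 0.952, and 0.967 to 0.978 was found among those 3. Trim33 itself had 43.8 and 42.3 CPM (library-size-scaled counts, TMM-normalised) in Trim33-deficient bodies, against 93.0 and 109.1 CPM in Control bodies, a log2 fold change of −1.23 (SE 0.13, edgeR quasi-likelihood adjusted p = 0.219, DESeq2 adjusted p = 1.78e-06). DESeq2 no longer called it when Trim33-deficient replicate 1 or 2 was left out (adjusted p = 0.176 and 0.204). Since the floxed exons were not located, reads of shortened Trim33 transcripts may be among these counts. Markers of several lineages were present, as in mixed embryoid bodies, and those of visceral endoderm, the yolk-sac epithelium, differed most. The summed level of 16 visceral endoderm markers was 623.6 and 748.4 CPM in Trim33-deficient bodies, against 1627 and 2158 CPM in Control bodies. Their part in the results that follow was not tested.

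The HIF targets were lower in Trim33-deficient bodies as a group. Their summed level was 735.6 and 964.3 CPM in Trim33-deficient bodies, against 1434 and 1432 CPM in Control bodies. All 10 genes had a log2 fold change (Trim33-deficient over Control) below 0, as did 50.2% of all genes tested, and their median was −0.78, against −0.001 over all genes. In 9 of the 10, P4ha2 being the exception, the groups did not overlap and the Trim33-deficient libraries were the lower, a pattern held by 21.4% of genes tested (40.7% in either direction). Within both pairs taken by replicate number 10 of 10 were lower, against 29.8% of genes tested. Because the genes were chosen with earlier results of these data known, these shares and the calls below describe the set. They are not an independent test of it. In bulk RNA fewer cells of a type and less RNA per cell cannot be told apart, here or in any value below.

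With 2 libraries a group, few of these differences passed a test across all genes. The edgeR quasi-likelihood test called 0 of the 10 at an adjusted p under 0.05, a call it made for 0.0140% of genes. At an unadjusted p under 0.05 it had 5 of the 10 lower (Bnip3, Ddit4, Vegfa, Bnip3l and Ankrd37), against 4.78% of genes tested. With the replicate number as a block 7 of the 10 were under that p, P4ha1 and P4ha2 being added, against 6.07% of genes tested. DESeq2 called Bnip3, Ddit4 and Vegfa lower, 3 of the 10, against 0.807% of genes tested. The likelihood ratio test of edgeR called Bnip3 and Ddit4, 2 of the 10, against 0.982%, and limma voom called 0. The authors' deposited table of 84 genes lists Bnip3, with a log2 fold change of −1.44 and an adjusted p of 9.19e-05, and Ddit4, with −0.87 and 0.0141.

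**Figure D1:**
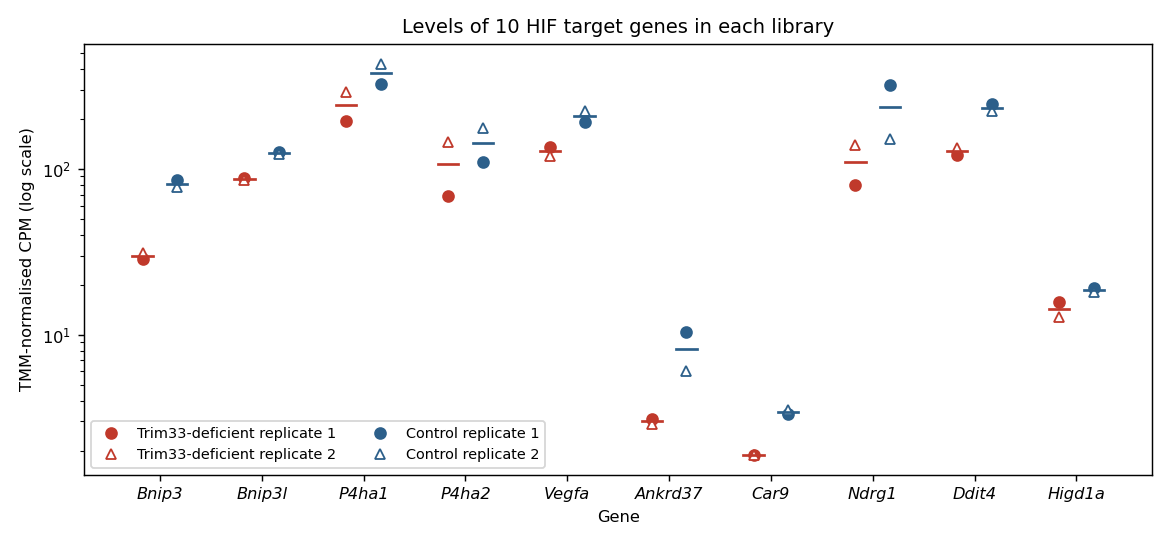
Normalised level (TMM-normalised CPM, log scale) of each of the 10 HIF target genes in the 2 Trim33-deficient libraries (red, left) and the 2 Control libraries (blue, right), with circles for replicate 1, triangles for replicate 2 and a bar at each group mean. The red and blue points overlap only for P4ha2, and the blue points of Ndrg1 lie far apart, at 319.2 and 151.4 CPM.

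The mitophagy receptors are described first. Bnip3 and Bnip3l (also called Nix) encode related proteins of the outer mitochondrial membrane that bind LC3-family proteins and hand mitochondria to autophagosomes. Bnip3 had 28.8 and 31.1 CPM in Trim33-deficient bodies, against 85.1 and 77.8 CPM in Control bodies. The replicates lay close together and the groups far apart, with 36.7% of the Control level left. Its log2 fold change was −1.44 (SE 0.13, 95% interval −1.78 to −1.11), with an adjusted p of 0.178 by edgeR's quasi-likelihood test and 5.98e-09 by DESeq2. The DESeq2 call was lost without Trim33-deficient replicate 1 (adjusted p = 0.0920) and stood without any other single library, while the log2 value stayed between −1.51 and −1.38.

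Bnip3l had 87.7 and 85.4 CPM in Trim33-deficient bodies, against 125.8 and 122.4 CPM in Control bodies. Replicates again differed by far less than the groups, but the difference was smaller, with 69.8% of the Control level left. Its log2 fold change of −0.52 (SE 0.10) had an unadjusted p of 0.00446, and an adjusted p of 0.485 by edgeR's quasi-likelihood test. Per kilobase of exon, Bnip3 stood at 0.56 and 0.62 times Bnip3l in Trim33-deficient bodies, against 1.15 and 1.08 times in Control bodies. The order of the paired receptors was thus opposite in the groups, with Bnip3 the lower of the pair in both Trim33-deficient libraries and the higher in both Control libraries. An exact two-sided permutation test of that ratio gave p = 0.333, the smallest that 2 against 2 libraries can give. On GRCm38 transcripts, 47.2% of the 50-base words of Bnip3 and 20.8% of those of Bnip3l recur in other annotated genes, the copy Bnip3l-ps in the case of Bnip3l, so their counts are less certain than those of P4ha1 and Ddit4, which share none.

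Of 12 other mitophagy and autophagosome genes tested, 5 were below 0 and 7 above, with a median log2 fold change of 0.08, and neither edgeR nor DESeq2 called any. Gabarapl1, an LC3-family gene, was at −0.32 (SE 0.12), with 68.9 and 66.9 CPM in Trim33-deficient bodies, against 89.2 and 79.8 CPM in Control bodies. Pink1, the kinase gene of the Parkin route, was at −0.29 (SE 0.17), and the cargo receptor gene Sqstm1 at 0.35 (SE 0.21). Map1lc3b, which encodes LC3B, was at 0.21 (SE 0.12). The 2 HIF-regulated receptors thus had more negative values than each of these 4 genes.

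P4ha1 and P4ha2 encode catalytic alpha subunits of the collagen prolyl 4-hydroxylase, which hydroxylates procollagen so that its triple helix is stable. P4ha1 had 193.1 and 291.9 CPM in Trim33-deficient bodies, against 322.9 and 431.2 CPM in Control bodies. Replicate 2 was the higher in both groups and the groups did not overlap. The log2 fold change was −0.64 (SE 0.26, 95% interval −1.32 to 0.04), with an adjusted p of 0.650 by edgeR's quasi-likelihood test. It was −0.97 with DESeq2 when Trim33-deficient replicate 2 was left out, and −0.36 when replicate 1 was.

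P4ha2 had 68.7 and 145.3 CPM in Trim33-deficient bodies, against 110.3 and 176.9 CPM in Control bodies. Here the groups overlapped, since Trim33-deficient replicate 2 lay above Control replicate 1, and replicate 2 was again the higher in both groups. The log2 fold change of −0.42 (SE 0.43, adjusted p = 0.798 by edgeR's quasi-likelihood test) had the largest p of the 10. It turned to 0.019 with edgeR and 0.028 with DESeq2 without Trim33-deficient replicate 1, and lay at −1.07 with DESeq2 without Trim33-deficient replicate 2. Within the pairs, P4ha1 differed by −0.74 and −0.56 and P4ha2 by −0.68 and −0.28 on the log2 CPM scale, and with the replicate number as a block their unadjusted edgeR p was 0.00364 and 0.0225 (adjusted p = 0.253 and 0.358).

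The collagens did not share this direction. Of 13 genes of fibrillar collagens and their processing, 12 had a log2 fold change above 0, with a median of 0.50, and neither edgeR nor DESeq2 called any. Plod1, Plod2 and Lox of this list are also counted among the further HIF targets below. Within both pairs 11 of the 13 were higher, against 4319 of the 14259 genes tested, and with the replicate number as a block DESeq2 called 4 of them higher, against 76 of all genes, while edgeR called none. Their summed level was 4750 and 12215 CPM in Trim33-deficient bodies, against 2344 and 8381 CPM in Control bodies. As for P4ha1 and P4ha2, replicate 2 was the higher in both groups, and the part of this shared difference in the P4ha1 and P4ha2 values was not tested. Bmp1, the procollagen C-proteinase gene, had 164.9 and 229.0 CPM in Trim33-deficient bodies, against 92.3 and 129.4 CPM in Control bodies (log2 fold change 0.83, SE 0.24). Pcolce, which encodes the enhancer of that enzyme, was at 1.33 (SE 0.67), the collagen V gene Col5a1 at 0.89 (SE 0.88) and the lysyl hydroxylase gene Plod1 at 0.35 (SE 0.20). The other hydroxylase genes were P4ha3 at 0.31 (SE 0.80) and P4hb, the beta subunit, at −0.12 (SE 0.17).

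Vegfa encodes the main growth factor of endothelial cells. It had 135.9 and 119.1 CPM in Trim33-deficient bodies, against 192.3 and 222.2 CPM in Control bodies. The gap between the groups was larger than the spread within either. The log2 fold change was −0.70 (SE 0.13), with an adjusted p of 0.483 by edgeR's quasi-likelihood test and 0.0347 by DESeq2. The DESeq2 call was lost without each library in turn (adjusted p = 0.268 to 0.9999) and with the replicate block, although the log2 value stayed between −0.80 and −0.58.

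The rest of the family and its receptors had values on both sides of 0. Vegfb, a family member tied to lipid uptake and endothelial survival, was at 0.10 (SE 0.18). The lymphatic growth factor genes Vegfc and Figf (Vegfd) were at 0.10 (SE 0.30) and 0.36 (SE 0.38), and Pgf, the placental growth factor gene, at 0.52 (SE 0.41). Per kilobase, Vegfa stood at 0.54 and 0.50 times Vegfb in Trim33-deficient bodies, against 0.99 and 0.84 times in Control bodies (exact two-sided permutation p = 0.333, the smallest possible). Among receptors, Flt1 was at 0.002 (SE 0.21), Flt4 at −0.001 (SE 0.55), Kdr at 0.13 (SE 0.93), Nrp1 at 0.72 (SE 1.07) and Nrp2 at 0.52 (SE 0.38). Kdr, the main signalling receptor for Vegfa, had 76.0 and 118.2 CPM in Trim33-deficient bodies, against 19.7 and 158.2 CPM in Control bodies. The lowest and the highest value were thus both in Control libraries. Kdr is itself among the 6 endothelial markers, whose summed level showed the same. That sum was 258.3 and 303.1 CPM in Trim33-deficient bodies, against 184.9 and 459.0 CPM in Control bodies.

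Ddit4 encodes REDD1, which restrains the growth kinase complex mTORC1 in low oxygen and other stress. Its level was 120.9 and 134.1 CPM in Trim33-deficient bodies, against 246.0 and 222.2 CPM in Control bodies. The groups were well apart, with 54.5% of the Control level left. The log2 fold change was −0.88 (SE 0.12, 95% interval −1.19 to −0.57), with an adjusted p of 0.271 by edgeR's quasi-likelihood test and 0.000245 by DESeq2. DESeq2 made that call without Control replicate 2 (adjusted p = 0.00985) but not without Control replicate 1 (0.251) or Trim33-deficient replicate 1 (0.858) or 2 (0.374). Its relative Ddit4l was at 0.36 (SE 0.31) with groups that overlapped.

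Ndrg1, a growth-arrest and differentiation gene that is a common marker of hypoxia, had 79.8 and 139.9 CPM in Trim33-deficient bodies, against 319.2 and 151.4 CPM in Control bodies. The groups did not overlap, but Trim33-deficient replicate 2 lay just under Control replicate 2, and Control replicate 1, the library that stood apart, was far above the rest. The log2 fold change was −1.10 (SE 0.45, adjusted p = 0.651 by edgeR's quasi-likelihood test). Without Control replicate 1 it was −0.47 with edgeR, and without Control replicate 2 −1.54. DESeq2 called it lower only in the fit without Control replicate 2 (adjusted p = 0.000299). Its paralogs Ndrg2, Ndrg3 and Ndrg4 were at −0.70 (SE 0.36), 0.04 (SE 0.13) and 0.37 (SE 0.27).

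Higd1a, a small protein of the mitochondrial inner membrane linked to respiratory complexes, had 15.7 and 12.7 CPM in Trim33-deficient bodies, against 19.0 and 18.1 CPM in Control bodies. It had the smallest difference of the 10, a log2 fold change of −0.38 (SE 0.21, adjusted p = 0.683 by edgeR's quasi-likelihood test), which was −0.24 without Trim33-deficient replicate 2. Its relative Higd2a was at −0.03 (SE 0.13), while Higd1b and Higd1c had 0 counts in all 4 libraries. Of the 50-base words of Higd1a, 24.4% recur in other genes.

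Ankrd37 and Car9 were the least abundant of the set. Ankrd37, an ankyrin-repeat gene strongly induced by hypoxia, had 43 and 34 counts (3.10 and 2.90 CPM) in Trim33-deficient bodies, against 134 and 62 counts (10.4 and 6.05 CPM) in Control bodies. The Control libraries differed from each other by more than the Trim33-deficient ones, with Control replicate 1 the higher. Its log2 fold change of −1.45 (SE 0.39) was about that of Bnip3 but less certain (95% interval −2.47 to −0.43, adjusted p = 0.548 by edgeR's quasi-likelihood test), and it was −1.01 without Control replicate 1. Of its exon bases, 26.4% overlap Lrp2bp or Ufsp2 on the other strand on GRCm38, so reads of these genes cannot be told apart where the counting ignores strand.

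Car9 encodes a cell-surface carbonic anhydrase that takes part in pH control in hypoxic cells. It had 26 and 22 counts (1.88 CPM in both) in Trim33-deficient bodies, against 43 and 36 counts (3.32 and 3.52 CPM) in Control bodies. The replicates were close, yet so few counts leave the log2 fold change of −0.86 wide (SE 0.36, 95% interval −1.81 to 0.09, adjusted p = 0.655 by edgeR's quasi-likelihood test). Other carbonic anhydrase genes also had values below 0, none of them called by edgeR or DESeq2. Car4 had 195.8 and 123.2 CPM in Trim33-deficient bodies, against 276.2 and 379.0 CPM in Control bodies (log2 fold change −1.04, SE 0.28). Car12 was at −0.29 (SE 0.46), Car2 at −0.36 (SE 0.43) and Car14 at −0.47 (SE 0.51). In all, of 20 paralogs and partners of the members tested, 8 were below 0, their median was 0.07, and neither edgeR nor DESeq2 called any.

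**Figure D2:**
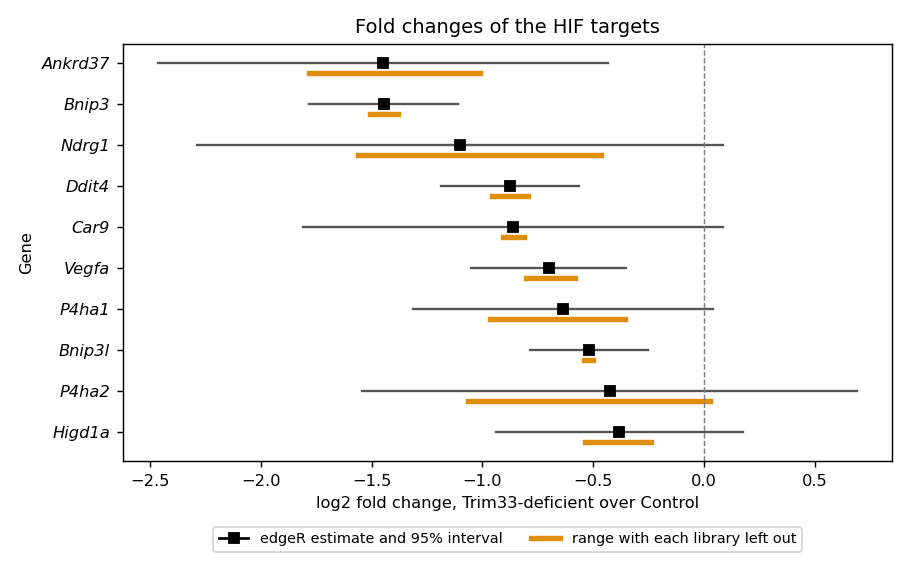
Log2 fold change of each HIF target, Trim33-deficient over Control, as the edgeR estimate (square) with its 95% interval (black line), and the range of the estimates by edgeR and DESeq2 when each library is left out (orange line). The intervals of Bnip3, Ddit4, Vegfa, Bnip3l and Ankrd37 lie below 0, and among the orange ranges only that of P4ha2 reaches above 0, to 0.028.

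Within the set the genes differed in how steady they were. On the log2 CPM scale the pair differences of Bnip3l were −0.52 and −0.52, those of Car9 −0.77 and −0.85, and those of Bnip3 −1.56 and −1.32. Car9 had only 22 to 43 counts a library (SE 0.36), so the closeness of its pair differences says little about its steadiness. At the other end, Ndrg1 differed by −2.00 in pair 1 and −0.11 in pair 2, and Ankrd37 by −1.69 and −1.02. Vegfa and Higd1a were the members with a clearly larger difference in pair 2, at −0.50 and −0.90 for Vegfa and −0.27 and −0.50 for Higd1a. Ddit4 differed by −1.02 and −0.73 and had the profile over the 4 libraries closest to the mean profile of the 10.

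**Figure D3:**
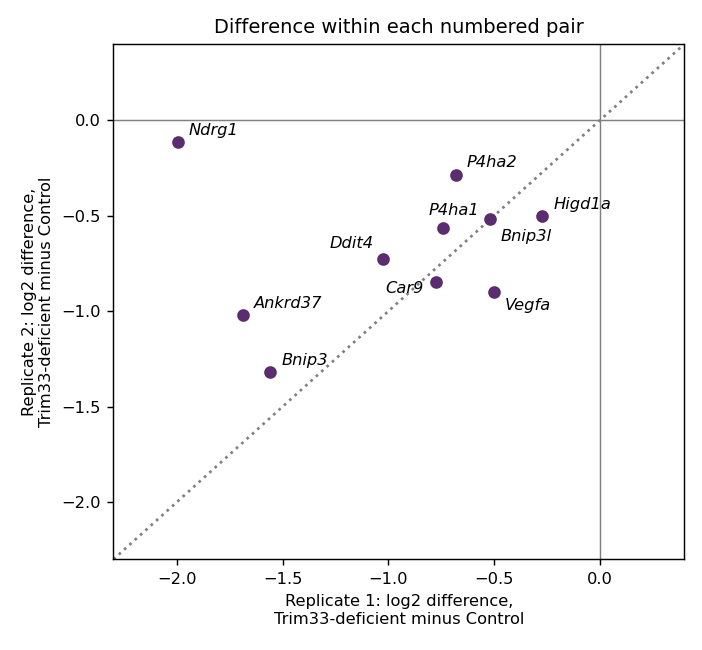
Log2 CPM difference, Trim33-deficient minus Control, of each HIF target within the libraries numbered 1 (horizontal axis) and within those numbered 2 (vertical axis), with a dotted line where both are equal. All 10 genes lie below 0 on both axes, and Ndrg1 lies farthest from the dotted line, at −2.00 and −0.11.

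By group mean, the order of levels per kilobase of exon was led in both groups by Ddit4, P4ha1 and Vegfa. It ended in both groups with Higd1a, Ankrd37 and Car9. In Control replicate 1 alone, Ndrg1 stood above Vegfa. Ddit4 averaged 72.6 ± 5.32 CPM per kilobase in Trim33-deficient bodies and 133.4 ± 9.59 in Control bodies (SD, n = 2 each), P4ha1 58.9 ± 16.98 and 91.7 ± 18.6, and Vegfa 29.8 ± 2.76 and 48.4 ± 4.94. In Trim33-deficient bodies Ddit4 and P4ha1 did not differ beyond their spread. The middle of the order was Bnip3l (22.4 ± 0.42), P4ha2 (17.2 ± 8.68), Ndrg1 (16.7 ± 6.44) and Bnip3 (13.2 ± 0.72) in Trim33-deficient bodies. In Control bodies it was Bnip3 (36.0 ± 2.26), Ndrg1 (35.7 ± 17.99), Bnip3l (32.1 ± 0.63) and P4ha2 (23.0 ± 7.56). By group mean Bnip3 thus took place 7 in Trim33-deficient bodies and place 4 in Control bodies. The spread of Ndrg1 spans its neighbours in both groups, and that of P4ha2 spans Bnip3 in Trim33-deficient bodies. Single libraries did not all keep these places. In Trim33-deficient replicate 1 Bnip3 stood above Ndrg1 and P4ha2, and in Control replicate 1 it stood below Ndrg1. Exon lengths came from GRCm38 gene models, so these levels are approximate for counts made on mm9. The levels take no account of 50-base words shared with other genes (47.2% for Bnip3, 24.4% for Higd1a, 20.8% for Bnip3l). The places of these genes among the others are therefore less certain.

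The other genes of the HIF pathway were counted over whole lists, which were chosen with earlier results of these data known. From the lists of targets, genes were named mainly by the smallest p in these data. Of 31 further HIF targets outside glycolysis tested, 21 were below 0 and 10 above, with a median of −0.21, and in 13 the groups did not overlap with the Trim33-deficient libraries the lower, against 21.4% of genes tested. DESeq2 called 4 of them lower and none higher, against 0.807% of genes tested called lower, and edgeR's quasi-likelihood test called none. Ak4, a mitochondrial adenylate kinase gene, had 57.5 and 50.05 CPM in Trim33-deficient bodies, against 157.9 and 124.6 CPM in Control bodies (log2 fold change −1.39, SE 0.17, edgeR adjusted p = 0.252, DESeq2 adjusted p = 6.13e-07). Mxi1, an antagonist of Myc, was at −0.83 (SE 0.13), Fam162a, a HIF-responsive mitochondrial gene, at −0.81 (SE 0.12), and the histone demethylase gene Kdm3a at −0.60 (SE 0.11). DESeq2 called Ak4, Mxi1, Fam162a and the nuclear receptor gene Rora, but not Kdm3a (DESeq2 adjusted p = 0.0605). Rora had 6.28 and 8.97 CPM in Trim33-deficient bodies, against 19.9 and 20.02 CPM in Control bodies (−1.39, SE 0.26).

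Targets in glycolysis and glucose transport had a median log2 fold change of −0.80 over 19 genes tested, close to the −0.78 of the 10 members. Of them 18 were below 0 and DESeq2 called 11 lower (against the same 0.807%), 10 of which are also in the authors' deposited table. The kinase gene Pdk1, which keeps pyruvate out of mitochondria, was at −1.21 (SE 0.12), the lactate exporter gene Slc16a3 at −1.02 (SE 0.10), Slc2a3 at −1.30 (SE 0.16) and Pgk1 at −1.003 (SE 0.11). Their summed level was 6637 and 6580 CPM in Trim33-deficient bodies, against 12180 and 11888 CPM in Control bodies.

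The genes of HIF itself and of oxygen sensing lay on both sides of 0. Hif1a had 295.3 and 320.9 CPM in Trim33-deficient bodies, against 211.6 and 257.9 CPM in Control bodies, with the Trim33-deficient libraries the higher and no overlap (log2 fold change 0.39, SE 0.14, adjusted p = 0.628 by edgeR's quasi-likelihood test and 0.660 by DESeq2). Hif1an, which encodes the asparagine hydroxylase that restrains HIF, was at 0.36 (SE 0.12). Epas1 was at −0.17 (SE 0.12), Hif3a at −0.19 (SE 0.46), Arnt at 0.03 (SE 0.14), Arnt2 at −0.26 (SE 0.45), Vhl at −0.003 (SE 0.12) and Egln2 at 0.14 (SE 0.14). The other prolyl hydroxylase genes, both themselves HIF targets, lay lower in Trim33-deficient bodies, called by DESeq2 but not by edgeR's quasi-likelihood test. Egln1 had 119.7 and 119.4 CPM in Trim33-deficient bodies, against 237.8 and 220.2 CPM in Control bodies (−0.94, SE 0.10, edgeR adjusted p = 0.219, DESeq2 adjusted p = 4.76e-06). Egln3 had 26.8 and 32.5 CPM in Trim33-deficient bodies, against 67.9 and 70.8 CPM in Control bodies (−1.23, SE 0.15, edgeR adjusted p = 0.252, DESeq2 adjusted p = 4.1e-05).

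**Figure D4:**
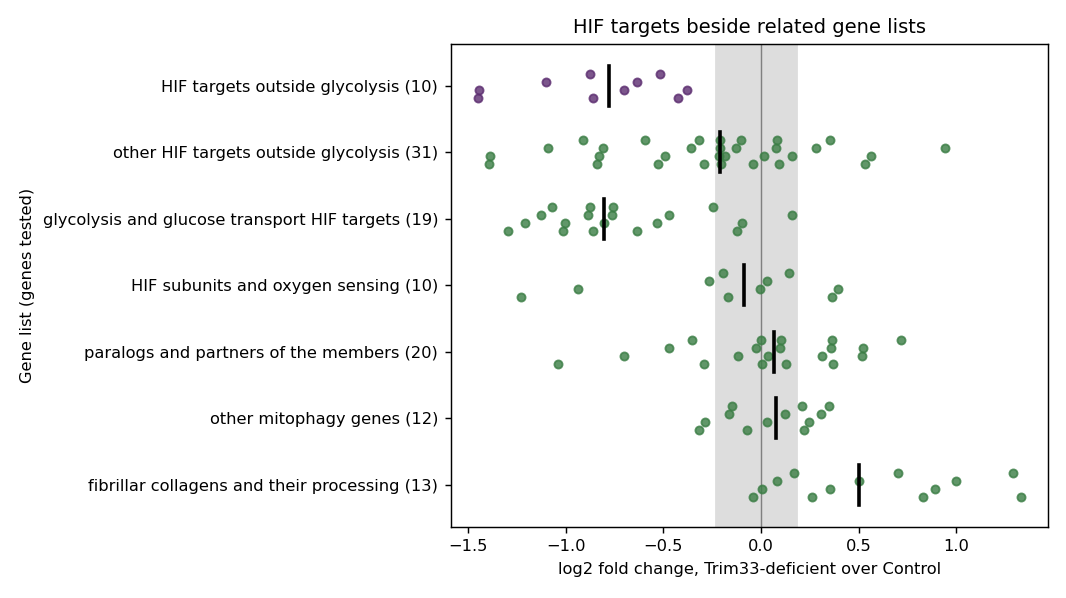
Log2 fold changes, Trim33-deficient over Control, of the 10 HIF targets outside glycolysis (purple) and of 6 related gene lists (green), with 1 point per gene tested, a black bar at each list's median and a grey band over the 25th to 75th percentile of all genes tested, −0.23 to 0.18. The HIF targets have a median of −0.78 and all lie left of the band, close to the glycolysis targets (median −0.80), while the collagens have a median of 0.50. Plod1, Plod2, Lox and Car12 each stand in more than 1 list.

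Leaving out the members themselves, over 10239 genes with a mean of at least 10 CPM, the 5 whose log2 CPM profile lay nearest to the mean profile of the members, centred on each gene's mean, were Fam162a, Plekhn1, Mapk1ip1, Ezh1 and Aldoa. Their Euclidean distances over the 4 libraries ran from 0.0522 to 0.131, where Ddit4, the nearest member, was at 0.0796. Fam162a had 81.1 and 94.9 CPM in Trim33-deficient bodies, against 154.7 and 153.0 CPM in Control bodies. Aldoa, a glycolytic aldolase gene, had 818.9 and 840.3 CPM in Trim33-deficient bodies, against 1569 and 1442 CPM in Control bodies. Ezh1, a Polycomb methyltransferase gene, had 30.6 and 32.0 CPM in Trim33-deficient bodies, against 55.7 and 55.9 CPM in Control bodies. The likeness rests on 4 libraries and a profile that mainly parts the groups.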

How the data were processed

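Total RNA of embryoid bodies went into standard Illumina libraries, per the labels' protocols, 2 Trim33-deficient and 2 Control, grouped by title. STAR, HTSeq, DESeq and the build mm9 are named, without versions or roles, in the submitters' processing notes. Raw counts for each gene symbol were deposited, with no strand setting stated. Rows that name no gene (55.5% to 56.0% of reads without a feature, at most 0.200% ambiguous) were left out. The authors' deposited table gives a log2 fold change and a p-value per gene. Its values matched DESeq2 in sign for 83 of 83 genes compared, so its direction is Trim33-deficient over Control.

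Low counts were removed with filterByExpr, and the rest scaled by TMM and compared by the quasi-likelihood F-test of edgeR 4.0.16 (two-sided, Benjamini-Hochberg adjustment over 14259 genes, threshold 0.05, R 4.3.3). The prior count of log2 CPM was 2. Other settings were DESeq2 1.42.0, other scalings and filters, limma 3.58.1 with voom, the likelihood ratio test, a replicate block and each library left out. The members, gene lists and tests were chosen with earlier results of these data known. Named are all members, Trim33, the 4 genes of smallest p and any called in each pathway list, every HIF subunit, oxygen sensor and paralog that passed the filter, 2 per marker list and the 5 nearest genes, while some DESeq2 calls are given as counts.

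The labels speak of pairs and only the replicate number tells them apart, so numbers were taken as pairs. Libraries of the same number deviated together from their group means (Pearson 0.236, Spearman 0.207 over genes). Replicates differed beyond sampling noise (chi-square per degree of freedom 25.6 between Trim33-deficient and 37.6 between Control libraries). Separate cell lines for the replicates are not stated in the labels, so the p-values rest on the spread between these libraries alone, which may be technical. Annotation, exon lengths and promoters came from GRCm38, not mm9, and were matched by symbol.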

Additional observations from a re-analysis of the deposited data

How the results depend on the processing

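Of 179 member values under all alternatives, 177 lay below 0. P4ha2 was at −1.062 with edgeR and −1.065 with DESeq2 without Trim33-deficient replicate 2. Without Trim33-deficient replicate 1 it was at 0.019 with edgeR and 0.028 with DESeq2, and the cause was not tested. Over all genes, edgeR's quasi-likelihood test called 2 lower and 0 higher. Without a low-count filter it called 14 lower, at a threshold of 0.1 it called 4, and limma voom called 0. DESeq2 called 115 lower and 26 higher (148 and 53 at a threshold of 0.1), and the likelihood ratio test 140 and 29. With a library left out, lower calls ranged from 0 to 29 and higher calls from 0 to 11 with edgeR. DESeq2 then called 44 lower and 8 higher without Trim33-deficient replicate 1, 34 and 14 without replicate 2, 55 and 31 without Control replicate 1, and 284 and 391 without Control replicate 2.

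Of the members, 0 were called by edgeR, 3 by DESeq2 (3 at a threshold of 0.1) and 2 by the likelihood ratio test. With a library left out the number ranged from 0 to 3, all with DESeq2. The Trim33 log2 fold change passed at −1.22 with DESeq2, at −1.23 with the likelihood ratio test and at −1.22 with DESeq2 and the replicate block, and ranged from −1.34 to −1.10 with a library left out. Its DESeq2 call was lost without Trim33-deficient replicate 1 (adjusted p = 0.176) or 2 (0.204). With edgeR the replicate block called 0 members, as did the fit without it. With DESeq2, an alternative chosen after seeing the data like the 0.1 threshold with DESeq2, the block called 2 members, since Vegfa was lost, and 111 lower and 76 higher genes in all. In the lists, DESeq2 without and with the replicate block called lower 4 and 2 other HIF targets, 11 and 10 glycolysis targets, 2 and 2 genes of HIF and oxygen sensing and 0 and 1 paralogs or partners, and called higher 0 and 4 collagen genes.

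Low counts limit Car9 and Ankrd37, and a filter of at least 50 counts in 2 libraries removed Car9. The 4 libraries limit every test.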

Other observations

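Genes near the members in function, in lists not drawn up as HIF targets, gave other values. Of 10 amino acid and integrated stress genes, 9 had a log2 fold change above 0, with a median of 0.28, and neither edgeR nor DESeq2 called any. Atf3, a stress transcription factor gene, had 39.2 and 46.8 CPM in Trim33-deficient bodies, against 25.1 and 23.3 CPM in Control bodies (log2 fold change 0.83, SE 0.16, adjusted p = 0.483 by edgeR's quasi-likelihood test). Atf4, the central factor of this response and a known inducer of Ddit4, had 283.7 and 284.4 CPM in Trim33-deficient bodies, against 200.1 and 235.1 CPM in Control bodies (0.38, SE 0.12). Trib3 was at 0.59 (SE 0.19) and Chac1 at 0.56 (SE 0.32). Of 10 genes that regulate mTORC1, the complex that Ddit4 restrains, 4 were below 0 and 6 above, with a median of 0.08, and Deptor, an inhibitor within the complex, was at −0.62 (SE 0.28). Akt1s1, Sesn1 and Rheb were at 0.21 (SE 0.14), 0.21 (SE 0.16) and 0.15 (SE 0.11).

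Other marker lists moved with the groups or with single libraries, and their part in the members' values was not tested. Of the visceral endoderm markers, 14 of 16 lay lower in both Trim33-deficient libraries and none was at 0 counts. Apoc2 and Cubn, at log2 fold changes of −6.12 and −4.76, were the 2 genes that edgeR's quasi-likelihood test called among all genes (adjusted p = 0.0138 and 0.0166). Summed over 8 genes, pluripotent cell markers had 121.9 and 172.7 CPM in Trim33-deficient bodies, against 261.7 and 189.3 CPM in Control bodies, with Tfcp2l1 at −0.92 and Tdh at −1.25. Neuroectoderm markers had 228.7 and 212.9 CPM in Trim33-deficient bodies, against 435.0 and 213.6 CPM in Control bodies, so that Control replicate 1, the library with the highest Ndrg1 and Ankrd37, stood above the rest. Olig2 and Otx2 of that list were at −1.42 and −1.49. Cardiac and mesoderm markers had 561.8 and 88.7 CPM in Trim33-deficient bodies, against 64.5 and 142.2 CPM in Control bodies, with Tnnt2 at 1.87 and Nkx2-5 at 1.88. Blood markers had 32.5 and 207.5 CPM in Trim33-deficient bodies, against 2.55 and 124.7 CPM in Control bodies, so replicate 2 was the higher in both groups, as for P4ha1, P4ha2 and the collagens. Hbb-y and Hba-x were at 1.41 and 1.11. Surface epithelium markers had 1311 and 1396 CPM in Trim33-deficient bodies, against 1574 and 1314 CPM in Control bodies, with Trp63 at −0.73 and Epcam at −0.39. Trophoblast markers had 287.6 and 414.0 CPM in Trim33-deficient bodies, against 287.0 and 446.8 CPM in Control bodies, with Tfap2c at −1.09 and Eomes at −0.35. In the endothelial list Cdh5 was at −0.59 and Pecam1 at −0.15. The genes named are the 2 of smallest p in each list. Below and above 0 lay 7 and 1 pluripotent, 6 and 0 neuroectoderm, and 1 and 4 cardiac and mesoderm genes tested. For blood the numbers were 1 and 5, for surface epithelium 3 and 2, for trophoblast 3 and 2 and for the endothelial list 4 and 2.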
